A study of Mus musculus with 4 samples.

Results

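The genes described here are 8 genes that respond to glucocorticoid hormone, chosen by name: Fkbp5, Tsc22d3, Sgk1, Zbtb16, Hsd11b1, Errfi1, Pim3 and Sds. Every probe set of the array whose annotation names 1 of them, and no other gene, was taken. This gave 14 of the 22626 probe sets that are not controls and 7 of the 8 genes, out of 12393 genes named in all. Sds, which encodes serine dehydratase, has no probe set named for it in the annotation used here and is therefore not described. Liver RNA of male mice aged 12 to 20 weeks was pooled within each group and hybridized to Affymetrix MOE430A arrays, with 1 array for each of 4 groups. The sources differ on whether a pool held 5 mice or 4 to 5. The groups were 24-hour fasted PPARα-null mice (129S4/SvJae), 24-hour fasted wild-type mice (129S1/SvImJ), fed PPARα-null mice and fed wild-type mice. Livers of both feeding states were taken near the change from dark to light. Genotype and substrain differed together, so their effects cannot be told apart. A pool gives 1 value per gene, so no difference below has a replicate check, no test was possible and no p-value is given.

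Glucocorticoids are steroid hormones of the adrenal cortex that rise with fasting and stress and help the liver to turn amino acids into glucose. In the cell the hormone binds the glucocorticoid receptor, a nuclear receptor held ready by HSP90 and its cochaperones, and the bound receptor enters the nucleus and activates genes. Its classical DNA element is an inverted repeat of a short half-site. Insulin, glucagon, cytokines and the clock also act on many of the same genes, and the hormone itself is not among the values used here. The chosen genes are thus given as a readout of RNA levels, to ask how they differ with fasting and whether that fasting response was the same without PPARα.

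The promoter sequences show where the receptor's element can be read directly. The half-sites AGAACA and TGTTCT, which are the same letters on opposite strands, were searched in windows from 250 bases before to 50 bases after each annotated transcription start (RefSeq, GRCm38.p6). Of the 8 genes, 6 had 14 such windows, and 4 of the 14 held a half-site, against 19.0% of all 32851 windows. Sgk1 alone supplied 6 of the 14 windows and 3 of those with a half-site, and Tsc22d3 supplied the remaining 1. The half-sites thus lay in these genes only, and 21.3% of all 27025 genes had a window with a half-site. The full element, AGAACA and TGTTCT separated by 3 bases, was present in 1 of the 14 windows, that of an internal start of Sgk1, and in 3 of all 32851 windows. It began 189 bases before that start. Sgk1 is shown because it carries the full element, Tsc22d3 because it carries a single half-site 185 bases before its most upstream start, and Fkbp5, which had the largest fasting difference, because its window holds neither. Capitals mark the half-sites. The lines give the plus strand of chr10:21993640-21993939 for Sgk1, the minus strand of chrX:140600473-140600772 for Tsc22d3 and the minus strand of chr17:28486100-28486399 for Fkbp5.
Sgk1: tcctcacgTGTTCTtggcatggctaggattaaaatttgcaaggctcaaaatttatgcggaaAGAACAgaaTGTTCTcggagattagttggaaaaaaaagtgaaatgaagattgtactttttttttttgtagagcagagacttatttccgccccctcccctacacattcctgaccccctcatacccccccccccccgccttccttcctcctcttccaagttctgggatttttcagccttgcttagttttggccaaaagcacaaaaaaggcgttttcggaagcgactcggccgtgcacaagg
Tsc22d3: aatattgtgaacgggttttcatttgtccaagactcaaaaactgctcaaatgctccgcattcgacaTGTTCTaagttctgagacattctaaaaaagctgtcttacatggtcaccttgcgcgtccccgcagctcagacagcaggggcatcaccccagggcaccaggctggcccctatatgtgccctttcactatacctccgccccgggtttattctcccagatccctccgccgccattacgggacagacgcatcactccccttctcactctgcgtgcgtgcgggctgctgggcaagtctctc
Fkbp5: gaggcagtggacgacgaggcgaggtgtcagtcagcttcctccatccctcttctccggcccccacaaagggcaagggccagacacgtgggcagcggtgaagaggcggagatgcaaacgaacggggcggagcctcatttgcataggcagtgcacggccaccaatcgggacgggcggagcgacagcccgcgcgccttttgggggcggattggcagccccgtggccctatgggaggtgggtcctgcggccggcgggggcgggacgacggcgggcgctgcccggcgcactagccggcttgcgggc
A match is a description of letters, and no match says only that these letters are not in this window. The array does not tell which of the 6 annotated starts of Sgk1 was used.

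**Figure D1:**
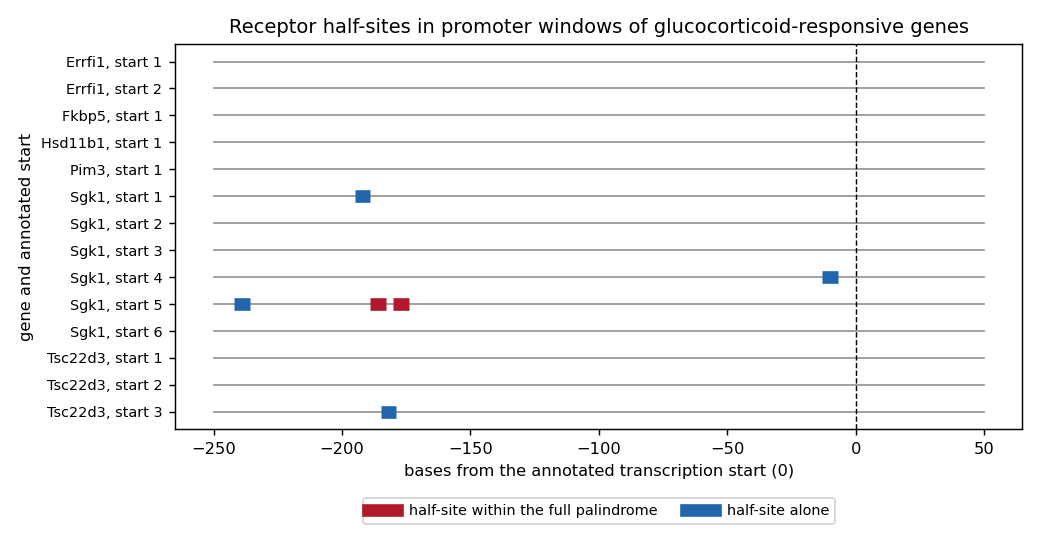
Half-sites of the glucocorticoid receptor element in 14 promoter windows of 6 genes, with the distance from the annotated transcription start in bases on the horizontal axis and 1 line per start. Red blocks are the pair of half-sites that form the full element, 189 and 180 bases before 1 internal start of Sgk1, and blue blocks are half-sites alone.

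Fkbp5 had the largest fasting difference among the 7 genes in both genotypes. It encodes FKBP51, an HSP90 cochaperone that lowers the receptor's affinity for hormone and so forms a feedback loop on glucocorticoid action. Its brighter probe set read 424 units in fasted PPARα-null and 319 units in fasted wild-type liver, against 23.8 units in fed PPARα-null and 20.6 units in fed wild-type liver. Units are GCRMA intensities on a linear scale, and values under 16 units were set to 16 as a floor before any log2 difference. Both fasted pools were far above both fed pools. Fkbp5 was 17.8-fold higher in fasted than in fed PPARα-null liver and 15.5-fold higher in fasted than in fed wild-type liver. The fed values lay close to the floor, which leaves the size of these folds uncertain. In a second, dimmer probe set Fkbp5 read 49.5 units in fasted null and 28.7 units in fasted wild-type liver, while both fed pools were below the floor, so it was at least 3.09-fold and at least 1.79-fold higher with fasting. Between genotypes Fkbp5 was 1.33-fold higher in the fasted null pool, below the 1.5-fold threshold that is used here for a difference, although the dimmer probe set was 1.73-fold higher.

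Pim3 was higher with fasting in both genotypes, and more so in PPARα-null liver. Pim3 encodes a serine/threonine kinase of the PIM family, which promotes cell survival. Its brightest probe set read 1219 units in fasted PPARα-null and 330.1 units in fasted wild-type liver, against 138 units in fed PPARα-null and 142 units in fed wild-type liver. The fed pools were alike, and the fasted null pool stood far above the fasted wild-type pool. This was an 8.85-fold higher value in fasted than in fed null liver and a 2.32-fold higher value in fasted than in fed wild-type liver. The fasted null pool exceeded the fasted wild-type pool 3.69-fold. The suffix of this probe set marks probes that may also match other sequences. A Pim3 probe set without such a suffix read 454 units in fasted null and 183 units in fasted wild-type liver, against 50.2 and 52.0 units in fed null and fed wild-type liver, which gave 9.04-fold and 3.53-fold differences with fasting and a 2.47-fold difference between the fasted genotypes. The remaining Pim3 probe set stayed between 27.6 and 30.5 units on all 4 arrays.

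Sgk1 differed with fasting in PPARα-null liver but not past the threshold in wild-type liver. Sgk1 encodes the serum and glucocorticoid-regulated kinase, which controls ion channels and transporters downstream of phosphoinositide signalling. It was represented by 1 probe set, which read 1347 units in fasted PPARα-null and 238 units in fasted wild-type liver, against 225 units in fed PPARα-null and 296 units in fed wild-type liver. The fasted null pool alone stood apart. Sgk1 was 5.98-fold higher in fasted than in fed null liver, whereas the log2 difference between fasted and fed wild-type liver was -0.31. Between genotypes it was 5.65-fold higher in the fasted null pool, and it was 1.32-fold lower in the fed null pool, which did not reach the threshold. The fasting difference on the log2 scale was thus 2.90 larger in null than in wild-type liver, the widest gap between genotypes among the 7 genes. The full element printed above lies in the window of 1 of the 6 annotated starts of Sgk1. Whether it bears on these values was not tested.

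Tsc22d3 differed in the opposite direction. It encodes GILZ, a leucine zipper protein that carries part of the anti-inflammatory action of glucocorticoids. Its brightest probe set read 798 units in fasted PPARα-null and 1406 units in fasted wild-type liver, against 1533 units in fed PPARα-null and 1311 units in fed wild-type liver. The fasted null pool was the lowest of the 4, and the other three lay close together. Tsc22d3 was 1.92-fold lower in fasted than in fed null liver and 1.76-fold lower in the null than in the wild-type pool after fasting, while the difference between fasted and fed wild-type liver was 0.10 on the log2 scale. A second Tsc22d3 probe set read 541 units in fasted null and 867 units in fasted wild-type liver, against 1160.1 and 926 units in fed null and fed wild-type liver, and gave folds of 2.14 and 1.60 in the same directions. The remaining Tsc22d3 probe set lay between 12.2 and 17.6 units and could not be compared.

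Zbtb16 was higher in both fasted pools at low values. Zbtb16 encodes PLZF, a zinc finger transcription factor. Its brighter probe set read 86.4 units in fasted PPARα-null and 61.1 units in fasted wild-type liver, against 21.1 units in fed PPARα-null and 28.0 units in fed wild-type liver. This was 4.09-fold higher in fasted than in fed null liver and 2.19-fold higher in fasted than in fed wild-type liver, and 1.41-fold higher in the null than in the wild-type pool after fasting. The other Zbtb16 probe set was below the floor on all 4 arrays. The brighter one carries a suffix for possible matches to other sequences, and both fasting differences, and the gap between them, were below the threshold when the floor was set at 64 units.

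Hsd11b1 and Errfi1 did not reach the threshold in any of the 4 comparisons. Hsd11b1 encodes the enzyme that regenerates active glucocorticoid from its inactive keto form inside the liver cell. It read 5210.1 units in fasted PPARα-null and 4707 units in fasted wild-type liver, against 5981 units in fed PPARα-null and 6009 units in fed wild-type liver. Both fasted values were below both fed values, by -0.20 in null and -0.35 in wild-type liver on the log2 scale. Errfi1 encodes a feedback inhibitor of the epidermal growth factor receptor. It read 9208 units in fasted PPARα-null and 8446 units in fasted wild-type liver, against 7708 units in fed PPARα-null and 6827 units in fed wild-type liver, with log2 differences with fasting of 0.26 and 0.31. A second Errfi1 probe set had log2 differences of -0.01 in null and 0.52 in wild-type liver.

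**Figure D2:**
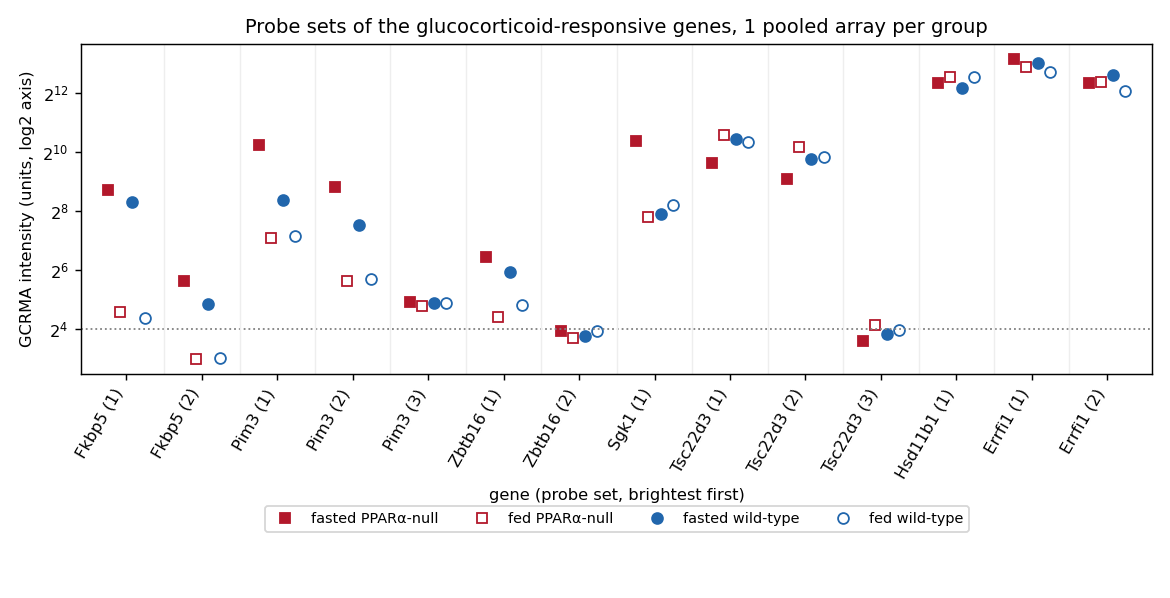
GCRMA intensity on a log2 axis for the 14 probe sets of 7 glucocorticoid-responsive genes, with 1 point per pooled array (squares for PPARα-null, circles for wild-type, filled for fasted, open for fed) and a dotted line at the floor of 16 units. Fkbp5 reads 424 and 319 units in the fasted pools and 23.8 and 20.6 units in the fed pools, whereas Sgk1 reads 1347 units in fasted null liver and 225 to 296 units on the remaining arrays.

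The counts were read against all 6947 genes with a value above the floor on at least 1 array, using the brightest probe set of each gene. In PPARα-null liver 4 of the 7 genes were at least 1.5-fold higher with fasting and 1 was lower, against 12.4% of all measured genes higher and 18.0% lower. In wild-type liver 3 of the 7 were higher with fasting (Fkbp5, Pim3 and Zbtb16) and 0 were lower, against 8.2% and 8.29% of all measured genes. The median log2 difference of the 7 genes with fasting was 2.03 in null and 0.31 in wild-type liver, beside medians of -0.01 and 0 over all measured genes. The genes did not move as 1 block, since the differences ran from -0.94 (Tsc22d3) to 4.16 (Fkbp5) in null liver and from -0.35 (Hsd11b1) to 3.95 (Fkbp5) in wild-type liver. Only 7 genes stand behind these counts. They, and the lists below, were chosen with earlier results of these data known.

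Between genotypes the differences past the threshold lay in the fasted state, where more of all measured genes also differed. In fasted PPARα-null against fasted wild-type liver 2 of the 7 genes, Sgk1 and Pim3, were higher and 1, Tsc22d3, was lower, against 8.58% and 13.6% of all measured genes. The median log2 difference was 0.41, beside -0.01 over all genes. In fed PPARα-null against fed wild-type liver 0 of the 7 were higher and 0 lower, against 2.38% and 2.12% of all measured genes. For 7 genes these counts are near the background. The values ran from -0.41 (Zbtb16) to 0.23 (Tsc22d3). The fasting response itself was at least 1.5-fold higher in null than in wild-type liver for Sgk1, Pim3 and Zbtb16 and lower for Tsc22d3, with log2 gaps of 2.90, 1.93, 0.90 and -1.04, against 9.14% of all measured genes on the higher and 14.9% on the lower side. These comparisons share arrays, so they are not independent of each other. As a guide to the noise of a single value, the log2 differences of probe sets that share a gene scattered around their mean with an SD on the log2 scale of 0.36 for the fasted genotypes, 0.21 for the fed genotypes, 0.45 for fasting in null and 0.26 for fasting in wild-type liver (1027 to 1090 genes). This scatter is not a replicate error, and it was not computed for the gap between fasting responses. The 3 probe sets of Pim3 gave gaps of 1.93, 1.36 and 0.14. Centring each array on its bright probe sets, which left 7062 genes measured, moved the background between the fasted genotypes to 12.6% higher and 10.2% lower, that for fasting in null liver to 15.9% higher and 14.4% lower, and that for the gap between fasting responses to 13.9% higher and 10.9% lower.

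**Figure D3:**
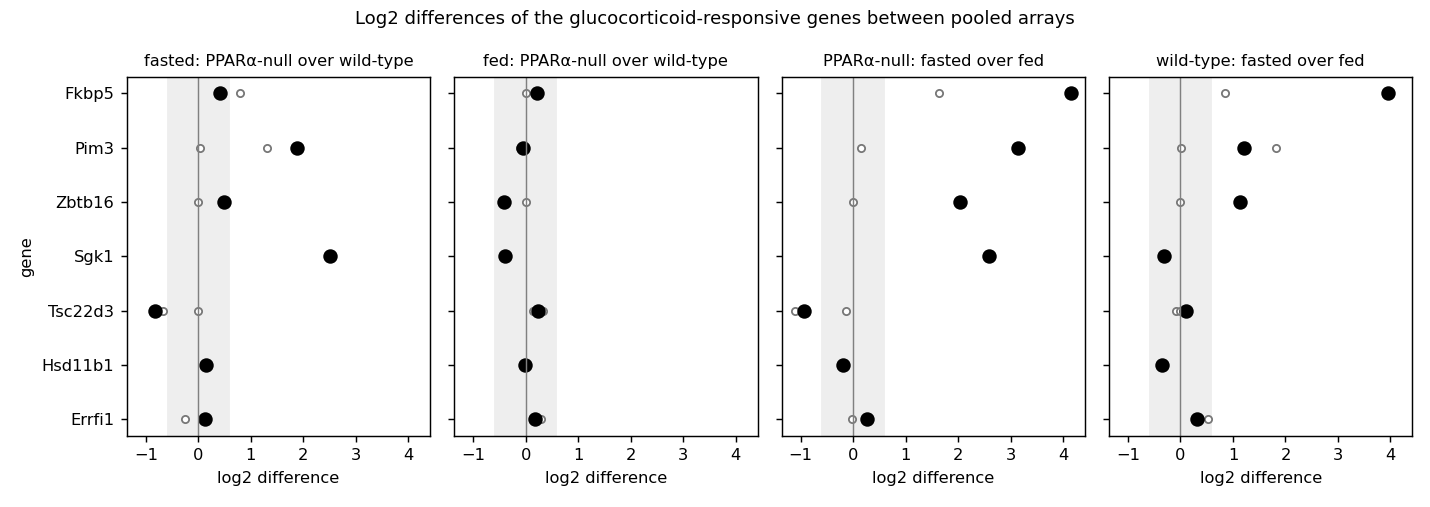
Log2 differences of the 7 measured genes in the 4 comparisons between pooled arrays, with filled points for the brightest probe set, small open points for the remaining ones and a grey band for differences below 1.5-fold. Every gene lies within the band in the fed comparison of genotypes, while Sgk1 at 2.50, Pim3 at 1.88 and Tsc22d3 at -0.82 lie outside it in the fasted comparison.

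The receptor and its chaperones were examined next, as the machinery through which the hormone acts. Of a list of 13 genes of the receptor complex, 9 were measured. Nr3c1, the gene of the glucocorticoid receptor, read 626 units in fasted PPARα-null and 685 units in fasted wild-type liver, against 730.2 units in fed PPARα-null and 894 units in fed wild-type liver in its brightest probe set. No comparison of Nr3c1 reached the threshold, and its log2 differences with fasting were -0.22 in null and -0.38 in wild-type liver. A dimmer Nr3c1 probe set, at 109 to 157 units, had 0.33 in null and -0.26 in wild-type liver. Between the fasted genotypes it had 0.53, where the brightest had -0.13. The remaining Nr3c1 probe set, at no more than 40.3 units, had 0.07 and -0.12 with fasting in null and wild-type liver. The probe sets thus did not share a direction in null liver. The chaperone genes were lower in part. Fkbp4, which encodes FKBP52, the cochaperone that favours hormone binding and nuclear entry and so opposes FKBP51, read 85.0 units in fasted PPARα-null and 249 units in fasted wild-type liver, against 743 units in fed PPARα-null and 671 units in fed wild-type liver. It was 8.74-fold lower in fasted than in fed null liver and 2.70-fold lower in fasted than in fed wild-type liver, and 2.93-fold lower in the null than in the wild-type pool after fasting. Fkbp4 and Fkbp5, whose proteins compete for the same place on HSP90, thus differed with fasting in opposite directions in both genotypes. A second Fkbp4 probe set was below the floor on all arrays, and the brighter one carries a suffix for several transcripts.

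Hsp90aa1, the gene of the inducible HSP90 form, read 4049 units in fasted null and 3347 units in fasted wild-type liver, against 4835 and 6194 units in fed null and fed wild-type liver, which was 1.85-fold lower with fasting in wild-type liver and -0.26 on the log2 scale in null liver. The other Hsp90aa1 probe sets had log2 differences of -1.11 and -1.45 with fasting in wild-type liver and of -0.28 and -0.26 in null liver. Both were lower past the threshold in fed null than in fed wild-type liver, by -0.67 and -0.93. Stip1, which links HSP70 to HSP90, was 2.13-fold lower with fasting in null and 1.55-fold lower in wild-type liver, at values of at most 73.7 units. Hspa8 and Dnaja1, of the HSP70 system, did not reach the threshold in any comparison in their brightest probe sets. In all, 0 of the 9 genes were higher and 2 lower with fasting in null liver, and 0 were higher and 3 lower in wild-type liver, with medians of -0.26 and -0.38. Of all measured genes 18.0% were lower with fasting in null and 8.29% in wild-type liver, so 2 of 9 in null liver is near the background. In the fasted comparison of genotypes Fkbp4, lower in null liver, was the 1 gene of the 9 past the threshold in its brightest probe set. Of all measured genes 13.6% were lower and 8.58% higher in that comparison, so this count is near the background too. Dimmer probe sets of Hspa8 and Ppp5c, another gene of the list, had log2 differences there of -1.47 and -0.82. With fasting in null liver they had -1.87 and -0.88. Averaging probe sets gave 2 of the 9 genes lower between the fasted genotypes.

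Genes that set how much active hormone reaches the receptor were lower with fasting in part. Serpina6, which encodes corticosteroid-binding globulin, the carrier that the liver secretes, read 788 units in fasted PPARα-null and 499 units in fasted wild-type liver, against 1756 units in fed PPARα-null and 1652 units in fed wild-type liver. It was 2.23-fold lower with fasting in null liver and 3.31-fold lower in wild-type liver, and 1.58-fold higher in the null than in the wild-type pool after fasting. Akr1d1, the gene of the steroid 5β-reductase that begins the inactivation of the hormone, read 1149 units in fasted null and 1563 units in fasted wild-type liver, against 3269 and 2238 units in fed null and fed wild-type liver. It was 2.84-fold lower with fasting in null liver and 1.43-fold lower in wild-type liver, the second below the threshold. A dimmer Akr1d1 probe set, at 94.7 to 195 units, had log2 differences with fasting of -1.04 in null and 0.13 in wild-type liver. Between the fasted genotypes it had -0.93, past the threshold, where the brighter one had -0.44. Akr1c14, which encodes a 3α-hydroxysteroid dehydrogenase that acts on reduced steroids, read 865 units in fasted null and 2542 units in fasted wild-type liver, against 5244 and 5672 units in fed null and fed wild-type liver. It was 6.06-fold and 2.23-fold lower with fasting in null and wild-type liver, and 2.94-fold lower in the null than in the wild-type pool after fasting. H6pd makes the NADPH that drives the enzyme of Hsd11b1 toward active hormone. It read 321 units in fasted null and 541 units in fasted wild-type liver, against 459 and 451 units in fed null and fed wild-type liver, and was 1.69-fold lower in fasted null liver than in its wild-type counterpart. From this list of 8 genes 5 were measured, of which 3 were lower with fasting in null and 2 in wild-type liver, and 0 were higher, against 18.0% and 8.29% of all measured genes lower. Cyp3a11, the remaining measured gene, which encodes a steroid hydroxylase, had log2 differences with fasting of 0.51 in null and 0.08 in wild-type liver. Hsd11b2, which encodes the opposite, inactivating enzyme, was below the floor on all arrays.

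**Figure D4:**
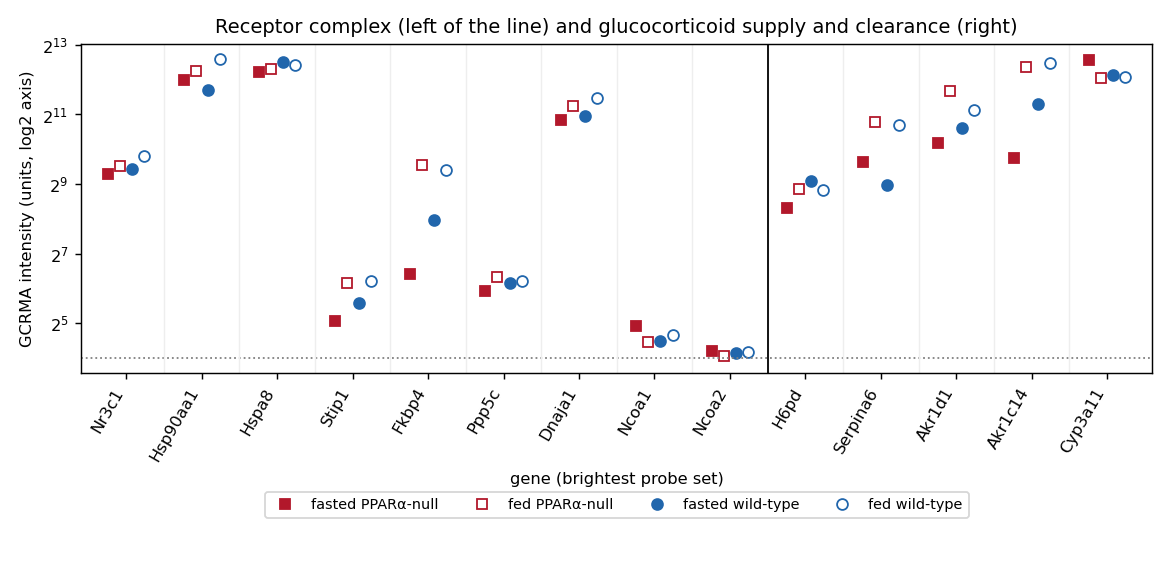
GCRMA intensity on a log2 axis for the 9 measured genes of the receptor complex and the 5 measured genes of hormone supply and clearance, with 1 point per pooled array (squares for PPARα-null, circles for wild-type, filled for fasted, open for fed). Nr3c1 stays between 626 and 894 units, whereas Fkbp4 reads 85.0 and 249 units in the fasted pools and 743 and 671 units in the fed pools.

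A wider list of 29 genes known to respond to glucocorticoid in liver or other tissues was set beside the 8. It was chosen with earlier results of these data known, so its counts describe these pools and are not independent evidence. Of its 28 measured members, 19 were at least 1.5-fold higher with fasting in PPARα-null liver and 2 lower, and 14 were higher and 3 lower in wild-type liver, with median log2 differences of 0.96 and 0.65. Of all measured genes 12.4% were higher and 18.0% lower in null liver and 8.2% higher and 8.29% lower in wild-type liver, with medians of -0.01 and 0. The enzyme genes of amino acid and glucose metabolism went up in part. Tat, tyrosine aminotransferase and a long-used marker of the hormone, read 8166 units in fasted null and 5352 units in fasted wild-type liver, against 3638 and 4146 units in fed null and fed wild-type liver, which was 2.25-fold higher with fasting in null liver and 1.29-fold higher in wild-type liver. Got1, an aspartate aminotransferase gene, was 5.12-fold and 3.50-fold higher with fasting in null and wild-type liver. Pck1, of the first committed step of gluconeogenesis, was 2.04-fold and 2.25-fold higher. G6pc, Tdo2, Cps1 and Agt stayed below the threshold with fasting in both genotypes, with log2 differences between -0.04 and 0.39.

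Among the regulators, Klf9, a transcription factor gene that the receptor activates directly, was 3.22-fold higher with fasting in null and 2.42-fold higher in wild-type liver, and Cebpb 3.63-fold and 2.43-fold higher. Per1, a clock gene and direct receptor target, was above the floor only in fasted null liver, at 27.1 units. The insulin-repressed gene Igfbp1 was 10.9-fold and 6.85-fold higher with fasting. The metallothionein gene Mt1, which zinc and glucocorticoid raise, read 8681 units in fasted null and 2321 units in fasted wild-type liver, against 54.2 and 48.1 units in fed null and fed wild-type liver. Its relative Mt2 read 9714 units in fasted null and 453 units in fasted wild-type liver, against 64.9 and 32.9 units in fed null and fed wild-type liver, and was 13.8-fold higher with fasting in wild-type liver and 21.5-fold higher in the null than in the wild-type pool after fasting. Lpin1, a phosphatidate phosphatase and coactivator gene, read 4799 units in fasted null and 3774 units in fasted wild-type liver, against 160.3 and 134 units in fed null and fed wild-type liver. Bcl6, a transcriptional repressor gene, went the other way and was 4.05-fold and 6.48-fold lower with fasting.

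The wider list also parted by genotype in the fasted state. There 12 of 28 were higher in PPARα-null liver and 2 lower, against 8.58% and 13.6% of all measured genes. The median of the list was 0.42, beside -0.01 over all measured genes. Since the list was chosen with earlier results known, these values are a description only. The 2 lower genes were Ppargc1a and Angptl4. Ppargc1a read 23.7 units in fasted null and 74.0 units in fasted wild-type liver, with log2 differences with fasting of 0.12 in null and 1.68 in wild-type liver. In its brighter probe set Angptl4 was lower in the null pool in both feeding states, by -0.90 when fasted and -2.64 when fed on the log2 scale. That probe set was 18.5-fold and 5.55-fold higher with fasting in null and wild-type liver. A dimmer Angptl4 probe set went the other way between the fasted genotypes. It read 49.9 units in fasted null liver and was below the floor on the remaining arrays, a log2 difference of at least 1.64. Like those of Sgk1, the fasting differences of Dusp1 and Tgm2 had opposite signs in the 2 genotypes. Dusp1, which encodes a phosphatase that switches off MAP kinases, read 639 units in fasted null and 187 units in fasted wild-type liver, against 429 and 507 units in fed null and fed wild-type liver. It was 2.71-fold lower with fasting in wild-type liver, while its difference of 0.58 in null liver was just below the threshold. Tgm2, the tissue transglutaminase gene, read 1736 units in fasted null and 341 units in fasted wild-type liver, against 937 and 716 units in fed null and fed wild-type liver. Its fasting difference in wild-type liver was -1.07 in this probe set and between -0.15 and -0.97 in the other 4 above the floor. The cell cycle inhibitor gene Cdkn1a was 27.5-fold higher in fasted null liver, at 762 units in fasted null and 27.7 units in fasted wild-type liver. Dusp1 and Tgm2 are named here because their fasting differences resembled that of Sgk1, a choice made after their values were seen. Sult1e1, the gene of estrogen sulfotransferase, read 1636 units in fasted null and 79.6 units in fasted wild-type liver, against 371 units in fed null and 19.6 units in fed wild-type liver. It was 20.5-fold higher in the null pool after fasting and 18.9-fold higher in the null pool when fed, so its genotype difference was present in both feeding states. In the fed state 4 of 28 were higher in null liver and 2 lower, against 2.38% and 2.12% of all measured genes.

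**Figure D5:**
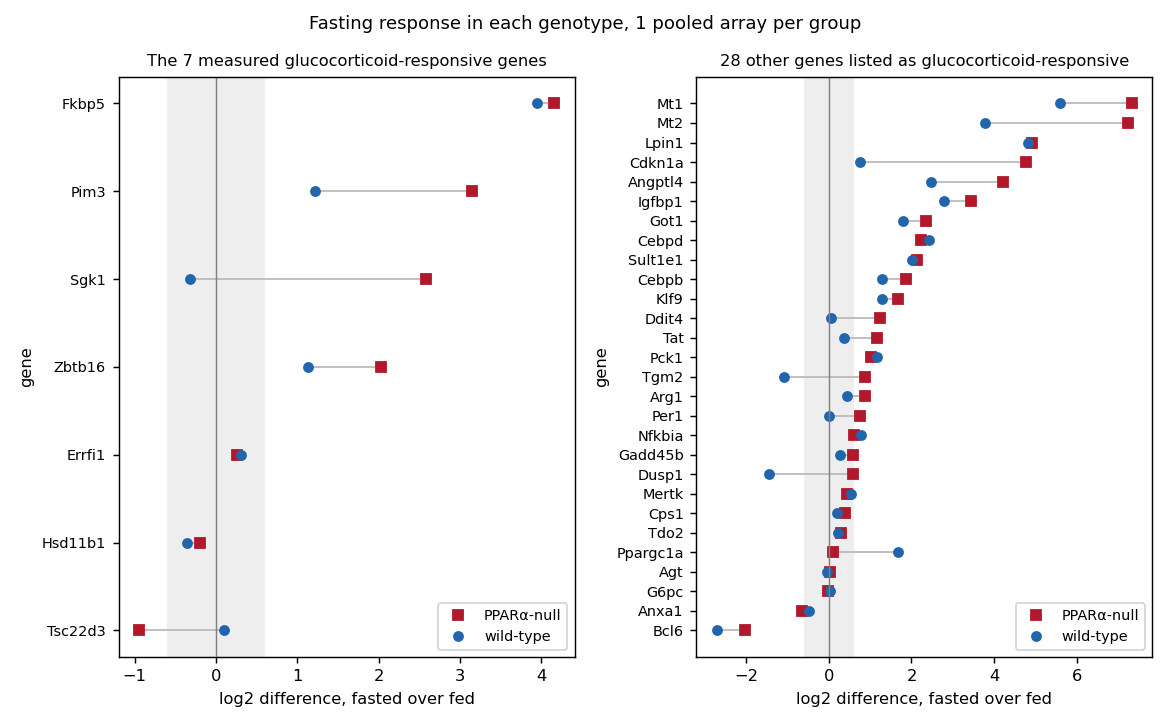
Log2 difference of fasted over fed liver in PPARα-null (red squares) and wild-type (blue circles) pools for the 7 measured genes on the left and 28 other glucocorticoid-responsive genes on the right, with a grey band for differences below 1.5-fold. Fkbp5 sits at 4.16 and 3.95, while Sgk1 sits at 2.58 in null and -0.31 in wild-type liver.

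Relatives of the 7 genes were set beside them. Sgk2 and Sgk3, kinases close to Sgk1, had log2 differences of -0.17 and -0.02 with fasting in null liver in their brightest probe sets, where Sgk1 had 2.58. A second Sgk3 probe set was higher in fasted null liver, at 35.8 units, against 21.2 units in fasted wild-type, 18.7 units in fed null and 18.7 units in fed wild-type liver, with log2 differences of 0.94 for fasting in null liver and 0.75 between the fasted genotypes. Pim1 had -0.04, at no more than 28.1 units, where Pim3 had 3.15. Tsc22d1, a relative of Tsc22d3, read 919 units in fasted PPARα-null and 805 units in fasted wild-type liver, against 5851 units in fed PPARα-null and 4785 units in fed wild-type liver. It was 6.37-fold lower with fasting in null and 5.95-fold lower in wild-type liver, and it did not differ past the threshold between the fasted genotypes, unlike Tsc22d3. Tsc22d4, another relative, read 33.9 units in fasted null and 19.7 units in fasted wild-type liver, against 20.8 and 17.0 units in fed null and fed wild-type liver. At these low values it was 1.63-fold higher with fasting in null liver. It was 1.73-fold higher in the null than in the wild-type pool after fasting, opposite to Tsc22d3. Among immunophilins, Fkbp1a, Fkbp2 and Fkbp8 had log2 differences between -0.14 and 0.05 with fasting in the 2 genotypes, while Fkbp3 was 2.14-fold and 1.82-fold lower. Zbtb20, a zinc finger relative of Zbtb16, was 1.93-fold and 1.74-fold lower. In all, 1 of the 11 measured relatives was higher with fasting in null liver and 4 were lower, and 0 were higher and 4 lower in wild-type liver. Of all measured genes 12.4% were higher and 18.0% lower in null liver and 8.2% higher and 8.29% lower in wild-type liver. Fkbp4 is counted both here and in the receptor complex.

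The genes with a pattern most like that of Fkbp5 over the 4 arrays were Lpin1, Pnpla2 and Gpcpd1. Likeness was the distance between the 4 log2 values after the mean of each gene was taken off, over 3801 genes that reached 64 units on at least 1 array. The distances were 0.81, 0.90 and 0.92. All 3 were high in both fasted pools and low in both fed pools, for example Pnpla2, the gene of adipose triglyceride lipase, at 620 units in fasted null and 548 units in fasted wild-type liver, against 67.7 and 61.9 units in fed null and fed wild-type liver. The closest to Tsc22d3 were Ppp3cb, Prkci and Ddx39a, at distances of 0.07, 0.08 and 0.11 and values between 44.6 and 108 units. With 4 arrays such likeness describes these pools only.

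The targeted gene and markers of other cells were checked on the same arrays. Ppara read 16.3 units in fasted PPARα-null and 755 units in fasted wild-type liver, against 104 units in fed PPARα-null and 583 units in fed wild-type liver, in the direction of the labels. The hepatocyte markers, among them Alb, did not differ past the threshold in any comparison. Of 6 Kupffer cell and macrophage markers 5 were measured, and Cd68 was below the floor on all arrays. Their summed level was 618 units in fasted null and 246 units in fasted wild-type liver, against 464 and 406 units in fed null and fed wild-type liver. C1qb made up 343 units of the sum in fasted null liver. In their brightest probe sets C1qa, C1qb, Csf1r and Clec4f were highest in the fasted null pool. A dimmer Csf1r probe set was highest in fed null liver, at 44.1 units against 40.1 units in fasted null liver. Adgre1 was highest in fed wild-type liver, at 53.2 units against 39.5 units in fasted null liver. The 3 measured of 5 endothelial markers summed to 672 units in fasted null and 349 units in fasted wild-type liver. They summed to 237 and 282 units in fed null and fed wild-type liver. Most of this was Stab2, and Pecam1 and Vwf were below the floor. Kdr was highest in fasted wild-type liver, at 19.4 units against 16.9 units in fasted null liver. Cdh5 was highest in fed null liver, at 18.5 units against 18.0 units in fasted null liver. The 3 measured of 5 stellate cell and fibroblast markers summed to 1941 units in fasted null and 1216 units in fasted wild-type liver, against 1423 and 1141 units in fed null and fed wild-type liver, with Col1a1 and Des below the floor. Nearly all of that sum was Dcn, whereas Col3a1, at 34.9 units in fasted null and 123 units in fed null liver, and Pdgfrb, at 30.5 units in fasted null and 81.5 units in fed null liver, were highest in the fed null pool. The 3 sums were highest in the fasted null pool, as Sgk1, Pim3 and Dusp1 were, and their part in those results was not tested. Of the lymphocyte markers Cd3e, Cd3d, Cd79a and Ms4a1 were below the floor on all arrays, as were the adipocyte markers Adipoq and Lep. Ptprc, the 1 measured lymphocyte marker, was lowest in the fasted null pool. It read 21.0 units in fasted null and 23.9 units in fasted wild-type liver, against 38.0 and 31.1 units in fed null and fed wild-type liver. In pooled tissue, a change in the share of a cell type and a change in RNA per cell cannot be told apart.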

How the data were processed

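Affymetrix MOE430A arrays were hybridized with pooled liver RNA, 1 array per group, and groups were taken from the sample titles. The deposited table holds linear-scale intensities. To make them the authors ran GCRMA, given as version 2.20 by the submitters' processing notes, which corrects background, normalizes quantiles and summarizes probe sets. The sources used here do not say which arrays were normalized together. The medians of the 4 arrays were 14.4 to 14.6 units, and 23.0% to 23.7% of probe sets reached 64 units. Of 22690 probe sets 64 were controls. A probe set was named where the platform annotation gave 1 gene (20393 probe sets), and symbols were checked against RefSeq GRCm38.p6 through gene identifiers for 20364.

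Values were converted to log2 with a floor of 16 units, and the probe set with the highest mean stood for a gene in counts. Folds against an array at the floor are lower bounds, written as at least. A difference of 1.5-fold was counted, following the study's rule for pooled arrays. Named genes were all members, Nr3c1, Ppara, the 4 largest differences of each list with fasting in wild-type liver and between fasted genotypes at 128 units or more, and 3 genes of like pattern. Further genes of the lists were named after their values were seen. The members and lists were chosen with earlier results of these data known. The alternatives were a 2-fold threshold, floors of 64 units or none, quantile normalization, centring on bright probe sets, lowess (fraction 0.3), leaving out suffixed probe sets and averaging probe sets. Precision is limited by the number of arrays. The procedure was tested on simulated data. Python 3.11.15, numpy 2.4.6, pandas 2.3.3, statsmodels 0.14.6 and matplotlib 3.10.9 were used.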

Additional observations from a re-analysis of the deposited data

Results flagged for a closer look

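Sgk1 and Tsc22d3 stood out because the fasting difference had opposite signs in the 2 genotypes in their brightest probe sets. For Sgk1 the log2 difference of fasted over fed liver was 2.58 in PPARα-null and -0.31 in wild-type pools, a gap of 2.90. For Tsc22d3 it was -0.94 in null and 0.10 in wild-type pools, a gap of -1.04. A second Tsc22d3 probe set had -1.10 in null and -0.09 in wild-type pools, the same sign, so the opposite sign of Tsc22d3 rests on 1 probe set. With 1 array per group the difference between genotypes was not tested for either gene, and the wild-type values were below the threshold.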

How the results depend on the processing

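Of 35 member values (7 genes in the 4 comparisons and in the gap between fasting responses), 28 kept their side of the 1.5-fold threshold under every alternative that measured the gene, and no member past the threshold changed sign. Those of Sgk1 and Pim3 were among them. The median of the members for fasting in PPARα-null liver was 2.03 and became 0.43 with a floor of 64 units, 1.02 with averaged probe sets and 2.58 without suffixed probe sets, where 5 genes remained measured. The count of lower members rests on Tsc22d3, whose probe sets all carry a suffix. It was 0 without suffixed probe sets for the fasted genotypes, for fasting in null liver and for the gap, 0 at 2-fold in the first 2 of these, and 0 for the fasted genotypes with averaged probe sets, where its log2 difference was -0.50. Zbtb16 lost both fasting calls at a floor of 64 units (0.43 in null and 0 in wild-type liver), and that in wild-type liver also with averaged probe sets, and Fkbp5 passed the threshold between fasted genotypes, at 0.60, with averaged probe sets. The Zbtb16 gap between fasting responses, 0.90, was below a 2-fold threshold and lost its call at a floor of 64 units (0.43) and with averaged probe sets. Without suffixed probe sets Zbtb16 was not measured. Between the fasted genotypes Zbtb16 passed the threshold with quantile normalization or centring. Centring raised the fasted null array by 0.10 on the log2 scale. In the wider list the counts at 2-fold were 7 higher and 1 lower for the fasted genotypes, against 12 and 2 at 1.5-fold. No paired analysis was possible because each group holds 1 pooled array. Values near the floor of 16 units limit the folds of Fkbp5 and Zbtb16.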
